A study of Homo sapiens with 9 samples.

Results

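The 10 genes described here are HIF1A, its prolyl hydroxylases EGLN1 and EGLN3, and 7 hypoxia targets outside glycolysis, CA9, CA12, NDRG1, ANKRD37, BNIP3, VEGFA and ADM. They were taken by name from a table of 59453 gene names, and all 10 were among the 16556 genes that passed the filter on low counts. The transcriptome was read by RNA-Seq in MDA-MB-231, an established human triple-negative breast cancer line, in 3 groups of 3 libraries: untreated cells, and cells treated with the copper chelator TEPA for 8 h or for 24 h. The labels give 8 mM TEPA, whereas the RNA sequencing methods give 4 mM. A single untreated group, for which the labels give no time, served both times. Duration of TEPA and time in culture therefore cannot be told apart. The TEPA stock was made up in complete culture medium, no separate vehicle control is named, and the culture methods name no hypoxic step. The comparison asked how copper depletion altered transcript levels over time in this single cell line.

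HIF1A encodes the oxygen-regulated subunit of hypoxia-inducible factor 1, which pairs with ARNT and binds DNA at hypoxia response elements. In oxygenated cells, prolyl hydroxylases of the EGLN family mark the HIF1A protein for capture by VHL and destruction, so that its activity is set mainly at the protein level. EGLN3, CA9, NDRG1, ANKRD37, BNIP3, VEGFA and ADM are known targets of HIF, and copper is known to take part in HIF-dependent transcription. Protein levels were not measured in these data.

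The core of a hypoxia response element reads ACGTG or GCGTG, and both were searched on both strands in the 250 bases before each RefSeq transcription start (GRCh38.p14). A promoter was matched for 8 of the 10 genes, all but NDRG1 and VEGFA, in 9 windows. ACGTG was found for 4 of the 8 genes, CA9, EGLN1, ANKRD37 and BNIP3, and in 18.5% of all 35116 promoter windows. GCGTG was found for ADM, CA12, HIF1A and BNIP3, and in 32.2% of all windows. EGLN3 had neither in its window. The 80 bases around the ACGTG matches are printed because they contrast CA9, the gene with the largest decrease, with 3 genes that carry the same letters and moved less. The part of either motif in the changes after TEPA was not tested. Capitals mark ACGTG or its reverse complement, and a run of 6 capitals is a palindrome that holds the motif on both strands.
CA9 (chr9:35673848-35673927, plus strand, ending 1 base before the start): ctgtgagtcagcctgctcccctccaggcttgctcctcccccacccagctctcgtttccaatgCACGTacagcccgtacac
EGLN1 (chr1:231422288-231422367, minus strand, ending 1 base before the start): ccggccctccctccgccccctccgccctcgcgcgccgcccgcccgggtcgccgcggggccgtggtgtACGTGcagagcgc
ANKRD37 (chr4:185396649-185396728, plus strand, from 192 to 113 bases before the start): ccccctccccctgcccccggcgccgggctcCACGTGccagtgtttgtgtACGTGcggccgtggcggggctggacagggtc
BNIP3 (chr10:131982008-131982087, minus strand, from 164 to 85 bases before the start): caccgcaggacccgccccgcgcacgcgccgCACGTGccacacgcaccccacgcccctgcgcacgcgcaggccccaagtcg

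Total counts per library ran from 34633755 to 49342659. Expression is given as CPM, gene counts relative to the library total after scaling by TMM factors. The labelled line was checked against its markers: VIM was at 3674 ± 124 CPM and CD44 at 859 ± 61.3 CPM in untreated cells, whereas ESR1 had at most 9 counts and PGR none in any library. ERBB2, also listed as low or absent in this line, was at 81.4 ± 5.11 CPM in untreated cells, and EPCAM at 1.13 ± 0.131 CPM (SD, n = 3). Of 7 genes of blood, endothelial, liver and stromal cells, PTPRC, CD3E, VWF and ALB had at most 5 counts. The other 3 moved in different directions: in untreated cells, at 8 h and at 24 h, PDGFRB was at 34.2, 27.1 and 94.5 CPM, COL1A1 at 13.7, 32.4 and 18.0 CPM, and PECAM1 at 3.59, 1.06 and 8.13 CPM. The summed level of the 7 lay between 45.4 and 59.6 CPM in untreated cells, 58.0 and 62.8 CPM after 8 h, and 117 and 126 CPM after 24 h, and its part in the results was not tested. MT1X, a metal-responsive metallothionein, fell from 8.94 ± 0.0885 CPM in untreated cells to 4.28 ± 0.0861 CPM after 8 h and 2.53 ± 0.53 CPM after 24 h (SD, n = 3), and MT2A changed by -1.15 and -1.60 on the log2 scale. Untreated replicate 1 stood apart for the genes described here. It was the highest of the untreated libraries for 8 of the 10 genes and the lowest for VEGFA and ADM, and its share of mitochondrially encoded counts was 1.79%, against 2.13% and 2.91% in the other untreated libraries. That share was 3.61% to 4.02% at 8 h and 1.89% to 2.02% at 24 h, and its part in the results was not tested. Values without untreated replicate 1 are therefore given for each of the 10 genes, though not in every comparison, and for some other genes.

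After 8 h of TEPA, 8 of the 10 genes were lower and 1 was higher than in untreated cells, by the quasi-likelihood test of edgeR with a Benjamini-Hochberg adjusted p under 0.05. Without untreated replicate 1, 9 were lower and 0 higher. The background was high, since 49.6% of all genes tested were called at 8 h, 24.5% as lower and 25.2% as higher. With a log2 fold change beyond 0.5 also required, 6 of the 10 were lower (EGLN3, CA9, CA12, NDRG1, ANKRD37 and BNIP3), against 7.67% of all genes, and none was higher, against 10.1% (17.8% in either direction). BNIP3 was just inside that limit at -0.501, and at -0.47 without untreated replicate 1, and HIF1A just outside it at -0.40. The median log2 fold change of the 10 genes was -0.55 at 8 h, beside -0.0013 over all genes tested. All libraries at 8 h lay below all untreated libraries for 8 of the 10 genes, where 57.8% of all genes did not overlap in either direction.

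At 24 h, 6 genes were lower (HIF1A, EGLN1, CA9, CA12, NDRG1 and BNIP3), ADM was higher, and EGLN3, ANKRD37 and VEGFA were not called. Of all genes, 52.5% were called at 24 h, 26.8% as lower and 25.7% as higher. With the fold limit, CA9, CA12 and NDRG1 were lower, against 8.46% of all genes, and none was higher, against 10.2% (18.7% in either direction). The median of the 10 was -0.27 beside 0.0023 over all genes. Libraries did not overlap for 7 of the 10 genes, against 57.2% of all genes. Both times were compared with the same untreated libraries, so their differences are not independent of each other. In bulk RNA, fewer cells that express a gene and less RNA per cell cannot be told apart.

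HIF1A, on chromosome 14 of GRCh38 from 61695513 to 61748259, was at 389, 350.3 and 359.7 CPM in the untreated libraries, 278, 278 and 274 CPM after 8 h, and 302, 315 and 321 CPM after 24 h. All TEPA libraries were below all untreated libraries, and all libraries at 24 h were above those at 8 h. The mean fell from 366 ± 20.3 CPM to 277 ± 2.21 CPM after 8 h and was 313 ± 9.38 CPM after 24 h (SD, n = 3). In log2 units the change was -0.40 (standard error, SE, 0.04, edgeR adjusted p = 1.1e-06) at 8 h and -0.23 (adjusted p = 2.2e-04) at 24 h, and from 8 h to 24 h HIF1A rose by 0.17 on the log2 scale (adjusted p = 0.0019). Without untreated replicate 1 the log2 fold changes were -0.36 and -0.19, and both calls held. Of all genes tested, 13.0% had a lower log2 fold change than HIF1A at 8 h.

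The hydroxylases differed in their time course. EGLN1, the main oxygen sensor of the family (chromosome 1, 231363751 to 231422287), was at 38.0, 35.7 and 34.7 CPM in the untreated libraries, 27.7, 30.3 and 31.0 CPM after 8 h, and 28.8, 30.3 and 28.5 CPM after 24 h. All TEPA libraries were below all untreated libraries, and those of 8 h and 24 h overlapped. Its log2 fold change was -0.29 (adjusted p = 5.7e-04) at 8 h and -0.31 (adjusted p = 2.5e-04) at 24 h by edgeR. Between the times it differed by -0.02, with a 95% interval from -0.14 to 0.10 (adjusted p = 0.78). Leaving out untreated replicate 1 gave -0.25 and -0.27 against untreated cells. In GENCODE v44, 55.8% of the exon bases of EGLN1 are shared with an unnamed gene model on the same strand, so its level is uncertain.

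EGLN3, a hydroxylase that HIF itself induces (chromosome 14, 33924227 to 34462774), was at 10.6, 7.66 and 8.52 CPM in the untreated libraries and at 4.48, 5.33 and 5.28 CPM after 8 h. At 24 h it was at 8.83, 9.035 and 9.065 CPM, within the untreated range. It fell by 0.82 on the log2 scale at 8 h (SE 0.11, edgeR adjusted p = 2.4e-05), and by 0.69 without untreated replicate 1. At 24 h the log2 fold change was 0.01, with a 95% interval from -0.21 to 0.24 (adjusted p = 0.93). Between 8 h and 24 h EGLN3 rose by 0.84 (SE 0.11, adjusted p = 1.4e-05), from 5.03 ± 0.481 CPM to 8.98 ± 0.129 CPM (SD, n = 3).

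The carbonic anhydrases, membrane enzymes that buffer acid at the cell surface, both fell at both times, and CA12 fell further between 8 h and 24 h. CA9 (chromosome 9, 35673928 to 35681159) had 215, 121 and 151 counts in the untreated libraries, 13, 26 and 14 counts after 8 h, and 30, 32 and 12 counts after 24 h. In CPM these were 5.73, 2.65 and 3.83 in untreated cells, 0.325, 0.68 and 0.381 at 8 h, and 0.588, 0.741 and 0.334 at 24 h. No TEPA library reached the lowest untreated library, although the untreated libraries themselves differed, relative to their mean, by more than for any other of the 10 genes. CA9 was 8.71-fold lower at 8 h (log2 fold change -3.12, SE 0.33, edgeR adjusted p = 1.4e-06). At 24 h it was 7.11-fold lower, at -2.83 (SE 0.31, adjusted p = 1.5e-06). Without untreated replicate 1 the values were -2.80 and -2.51. ARHGEF39, on the opposite strand, overlaps 35.7% of the exon bases of CA9, and the counting used strand.

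The spread of CA9 between libraries, as a share of its mean, was 38.2% in untreated cells, 41.3% at 8 h and 37.1% at 24 h. Counting error alone would give 7.85%, 23.8% and 20.1%. It was thus larger after TEPA, while the observed spread was similar in the 3 groups. The difference between the times, 0.29, had a wide 95% interval from -0.61 to 1.201 (edgeR adjusted p = 0.59). Only 0.0483% of all genes tested had a lower log2 fold change than CA9 at 8 h, and 0.103% at 24 h.

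CA12 (chromosome 15, 63321378 to 63381846) was at 27.0, 21.6 and 21.6 CPM in the untreated libraries, 16.1, 14.2 and 15.3 CPM after 8 h, and 6.375, 6.05 and 6.65 CPM after 24 h. The 3 groups were fully apart, in the order of treatment time. The log2 fold change was -0.62 (SE 0.09, edgeR adjusted p = 2.4e-05) at 8 h and -1.88 (SE 0.09, adjusted p = 3.5e-10) at 24 h, a 3.68-fold decrease. CA12 was the only gene of the 10 called lower at 24 h than at 8 h, at -1.26 (adjusted p = 3.2e-08). Leaving out untreated replicate 1 gave -0.51 and -1.77.

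NDRG1, a stress-responsive gene linked to growth arrest and metastasis suppression (chromosome 8, 133237175 to 133302022), was at 77.4, 55.3 and 61.6 CPM in the untreated libraries. It was at 24.1, 25.3 and 25.9 CPM after 8 h and at 30.4, 32.6 and 29.6 CPM after 24 h. All TEPA libraries lay below the lowest untreated library. Its log2 fold change was -1.36 (SE 0.09, edgeR adjusted p = 1.9e-08) at 8 h and -1.07 (SE 0.09, adjusted p = 9.7e-08) at 24 h, and -1.22 and -0.92 without untreated replicate 1. Between the times NDRG1 rose by 0.30 (adjusted p = 0.015), a call that did not hold without TEPA 8 h replicate 1 (0.27, adjusted p = 0.054) and without TEPA 24 h replicate 2 (0.26, adjusted p = 0.058).

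ANKRD37, a small ankyrin-repeat gene induced by HIF (chromosome 4, 185396021 to 185400628), had few counts, from 59 to 140 per library. It was at 3.15, 2.95 and 2.66 CPM in untreated libraries, 1.90, 2.27 and 1.61 CPM after 8 h, and 2.75, 2.64 and 2.42 CPM after 24 h. Only the libraries of 8 h were below all untreated libraries. The log2 fold change was -0.60 (SE 0.15, edgeR adjusted p = 0.0033) at 8 h and -0.16 (95% interval from -0.46 to 0.14, adjusted p = 0.36) at 24 h, and -0.55 and -0.11 without untreated replicate 1. Its rise between the times, 0.44 (adjusted p = 0.021), was not called by DESeq2 (0.45, adjusted p = 0.052). That call also failed without TEPA 8 h replicate 1 (adjusted p = 0.052), TEPA 8 h replicate 3 (0.095) or TEPA 24 h replicate 1 (0.076). UFSP2, on the opposite strand, overlaps 40.3% of its exon bases.

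BNIP3, a mitochondrial receptor for mitophagy (chromosome 10, 131967684 to 131981967), was at 92.6, 85.2 and 87.1 CPM in the untreated libraries, 63.8, 61.7 and 61.6 CPM after 8 h, and 63.6, 65.1 and 66.6 CPM after 24 h. The untreated libraries were above all others, and the times overlapped. Its log2 fold change was -0.50 (SE 0.04, edgeR adjusted p = 1.6e-07) at 8 h and -0.44 (SE 0.04, adjusted p = 3.6e-07) at 24 h, and -0.47 and -0.41 without untreated replicate 1. Between the times the difference was 0.06, with a 95% interval from -0.03 to 0.15 (adjusted p = 0.24). Its pseudogene BNIP3P1 had at most 8 counts in any library.

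BNIP3L, its paralogue and also a mitophagy receptor, fell with it at 8 h and not at 24 h. It was at 36.3 ± 6.81 CPM in untreated cells, 17.6 ± 1.09 CPM after 8 h and 36.5 ± 3.63 CPM after 24 h (SD, n = 3). In log2 units the change was -1.04 (edgeR adjusted p = 1.5e-06) at 8 h and 0.01 (95% interval from -0.21 to 0.23, adjusted p = 0.95) at 24 h. The rise between the times, 1.05, was called (adjusted p = 8.1e-07). Without untreated replicate 1, at 43.6 CPM against 30.1 and 35.2 CPM in the others, the values were -0.89 and 0.16.

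The genes for secreted vascular factors did not share the decreases. VEGFA, the main angiogenic growth factor (chromosome 6, 43770184 to 43786487), was at 136, 147 and 136 CPM in the untreated libraries, 156, 144 and 156 CPM after 8 h, and 147, 149 and 145 CPM after 24 h. Untreated and TEPA libraries overlapped at both times. Its log2 fold change at 8 h was 0.12 (SE 0.04, edgeR adjusted p = 0.023). That call was lost without untreated replicate 1 (adjusted p = 0.066), untreated replicate 3 (0.12), TEPA 8 h replicate 1 (0.1) or TEPA 8 h replicate 3 (0.12). At 24 h the value was 0.08 (95% interval from -0.01 to 0.17, adjusted p = 0.15), and VEGFA was called higher without untreated replicate 2 (0.11, adjusted p = 0.044).

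ADM, which encodes the vasodilator peptide adrenomedullin (chromosome 11, 10305073 to 10307397), was at 29.99, 34.8 and 35.4 CPM in the untreated libraries, 33.0, 29.96 and 30.1 CPM after 8 h, and 43.3, 43.5 and 41.4 CPM after 24 h. Libraries of 24 h were above all others. Its log2 fold change was -0.11 (95% interval from -0.24 to 0.03, edgeR adjusted p = 0.18) at 8 h and 0.35 (SE 0.06, adjusted p = 1.6e-04) at 24 h. Without untreated replicate 1, ADM was called lower at 8 h (-0.18, adjusted p = 0.013) and stayed higher at 24 h (0.28, adjusted p = 2.3e-04). Between the times it rose by 0.46 (SE 0.06, adjusted p = 1.3e-05).

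**Figure D1:**
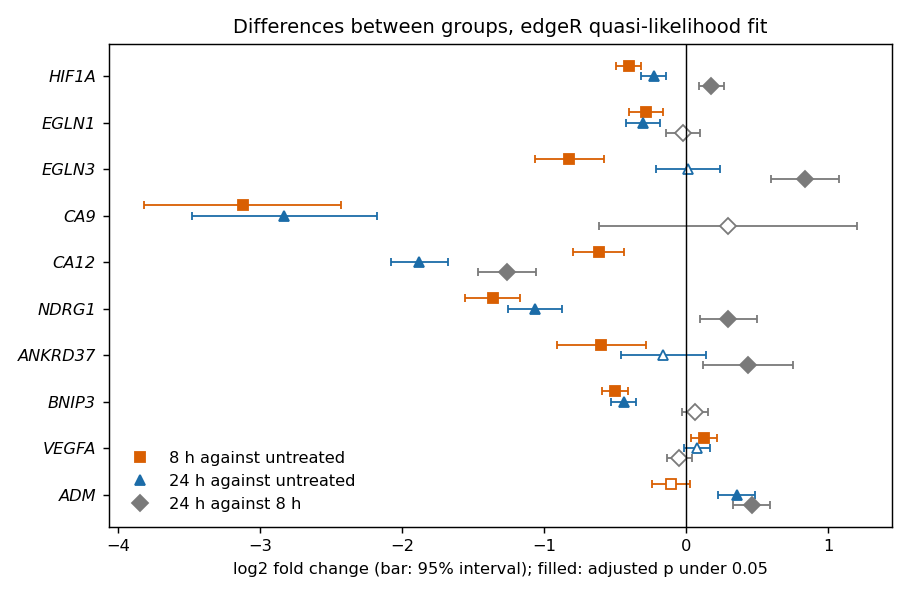
Log2 fold change (horizontal axis) of each of the 10 genes in the 3 comparisons from edgeR, with 95% intervals and filled markers at an adjusted p under 0.05. CA9 had the largest decrease at both times, CA12 alone fell further at 24 h, and ADM alone was called higher at 24 h.

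Libraries of 24 h were set against those of 8 h directly, because a call at only 1 time does not show a difference. HIF1A, EGLN3, NDRG1, ANKRD37 and ADM were higher at 24 h than at 8 h and CA12 was lower, while EGLN1, CA9, BNIP3 and VEGFA were not called. Of all genes, 54.8% were called in this comparison, 26.0% as higher and 28.8% as lower. With the fold limit, EGLN3 was higher, against 10.4% of all genes, and CA12 lower, against 10.8% (21.2% in either direction). Libraries of the times did not overlap for 6 of the 10 genes, against 62.0% of all genes. Without TEPA 8 h replicate 1, only 3 of the 10 were called higher.

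Levels of different genes were compared per kilobase of merged exon. HIF1A was the highest of the 10 in untreated cells, at 71.1 ± 3.95 CPM per kb, followed by BNIP3 (21.8 ± 0.953), ADM (14.4 ± 1.27) and VEGFA (9.67 ± 0.433). EGLN1 (6.71 ± 0.308), whose level is uncertain because it shares exon bases with another gene model, was above NDRG1 (5.399 ± 0.95). CA12 (3.34 ± 0.448) and CA9 (2.55 ± 0.974) overlapped in their libraries, as did ANKRD37 (1.30 ± 0.108) and EGLN3 (1.21 ± 0.204). At 8 h, CA9 was the lowest of the 10, at 0.289 ± 0.119 CPM per kb, and it remained the lowest at 24 h, at 0.347 ± 0.129. CA12, above ANKRD37 and EGLN3 in untreated cells and at 8 h, was below both at 24 h, at 0.908 ± 0.0429. ADM was above BNIP3 at 24 h, at 18.4 ± 0.498 against 16.1 ± 0.366. The order in the middle depended on the length used: for example, per kilobase of the canonical transcript, NDRG1 was above EGLN1 in every group (21.4 against 8.33 CPM per kb in untreated cells), VEGFA was above ADM in untreated cells (38.7 against 22.4 CPM per kb) and ADM was below BNIP3 at 24 h (28.6 against 42.2). HIF1A remained the highest and CA9 was the lowest in all groups on that scale.

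**Figure D2:**
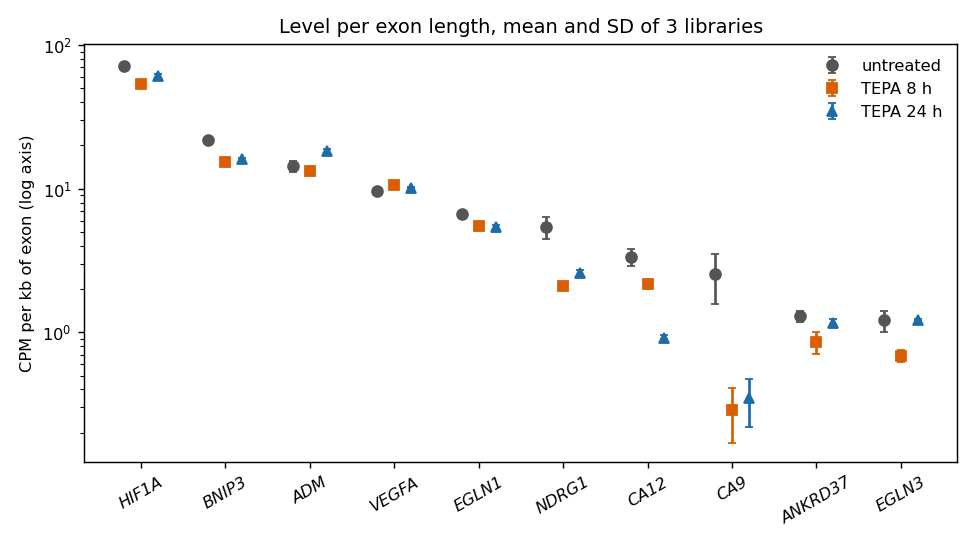
CPM per kb of merged exon (log axis) of the 10 genes, ordered by their untreated mean, with the mean and SD of 3 libraries in each group. HIF1A was the highest in every group, and CA9 dropped below ANKRD37 and EGLN3 after TEPA.

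Other HIF subunits did not move as a group. EPAS1, which encodes HIF2A, fell from 171 ± 19.7 CPM to 100.3 ± 3.77 CPM after 8 h and was 145 ± 8.09 CPM after 24 h (SD, n = 3). These gave changes of -0.77 (edgeR adjusted p = 2e-07) and -0.24 (adjusted p = 0.0055), and the rise between the times, 0.53, was called (adjusted p = 5.6e-06). Both calls for EPAS1 held without untreated replicate 1 (-0.67 and -0.14). ARNT, the shared partner of the alpha subunits, was slightly higher at 8 h (0.15, adjusted p = 0.014) and not called at 24 h (0.05, adjusted p = 0.35). ARNT2, its paralogue, was not called at 8 h (-0.0048, adjusted p = 0.95) and rose at 24 h, from 15.0 ± 0.62 CPM in untreated cells to 37.6 ± 0.993 CPM (1.33, adjusted p = 4.2e-11). HIF3A had no count in any library.

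Of 15 further genes of oxygen sensing and HIF turnover, 5 were lower and 3 higher at 8 h, and again 5 and 3 at 24 h, with medians of -0.08 and -0.11. Beside these counts, 49.6% of all genes tested were called at 8 h and 52.5% at 24 h. VHL, the substrate receptor of the HIF ubiquitin ligase, was not called at 8 h (0.07, edgeR adjusted p = 0.17) and was higher at 24 h (0.16, adjusted p = 0.0022). HIF1AN, the asparaginyl hydroxylase that blocks the HIF1A transactivation domain, decreased at 8 h (-0.14, adjusted p = 0.0049) and was not called at 24 h (-0.03, adjusted p = 0.59). EGLN2, the remaining prolyl hydroxylase, was higher at 8 h (0.79, adjusted p = 1.9e-04) and not called at 24 h (-0.23, adjusted p = 0.21). Its counts were low, from 49 to 139 per library, and 30.6% of its exon bases are shared with the readthrough gene RAB4B-EGLN2, so its level is uncertain. COMMD1, a copper-linked protein that also binds HIF1A, had the largest decrease of the list at both times, at -0.36 and -0.76 (adjusted p = 1.8e-04 and 7.5e-08). HSP90AA1, a chaperone of HIF1A, was higher at both, at 0.46 and 0.17 (adjusted p = 1.1e-05 and 0.02), but was not called at 24 h without untreated replicate 1 (0.09, adjusted p = 0.053).

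Among 9 coactivators and feedback genes, 2 were lower and 4 higher at 8 h, and 2 lower and 3 higher at 24 h, with medians of -0.04 and -0.06. The shares called over all genes tested were 49.6% at 8 h and 52.5% at 24 h. MXI1, a HIF-induced repressor of the MYC network, had the largest called decrease at 8 h (-0.61, edgeR adjusted p = 0.0028), and CREBBP, a coactivator of HIF, the largest increase (0.35, adjusted p = 3.1e-04). Both calls held without untreated replicate 1 (-0.41 and 0.27). Likewise at 24 h, among genes called with a mean of at least 100 counts, TRIM28 had the largest decrease (-0.49, adjusted p = 2.1e-07) and MED1, a Mediator subunit, the largest increase (0.35, adjusted p = 1.7e-06). Without untreated replicate 1, 4 of the 9 were lower and 3 higher at 24 h. MXI1 was then called higher (0.32, edgeR adjusted p = 0.024), but not with all libraries (0.12, adjusted p = 0.49).

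A further list held 50 non-glycolytic HIF targets, of which 44 were tested. Of these, 27 were lower and 5 higher at 8 h, against 24.5% and 25.2% of all genes, and the median of the 44 was -0.27. Beyond the fold limit, 11 were lower and 1 was higher, against 7.67% and 10.1% of all genes. Among called genes with a mean of at least 100 counts, the 4 largest decreases were those of BHLHE41 (-1.25), a clock-linked repressor, DDIT4 (-1.12), an inhibitor of mTORC1, BNIP3L (-1.04) and LOX (-0.78), the collagen cross-linker. Genes that increased included EDN1 (0.40), MET (0.35) and TFRC (0.24), with adjusted p-values from 1.1e-06 to 0.017 by edgeR. DDIT4 was at 148.5 ± 38.5 CPM in untreated cells, with replicate 1 at 192 CPM and the others at 119 and 135 CPM, and at 68.1 ± 2.95 CPM after 8 h. With that library left out, DDIT4 was at -0.90 and LOX at -0.58, and EDN1 was not called (0.28, adjusted p = 0.065). Of the 44, 26 were then lower and 5 higher.

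At 24 h, 25 of them were lower and 4 higher, against 26.8% and 25.7% of all genes, and the median of the 44 was -0.25. Beyond the fold limit, 8 were lower and 2 higher, against 8.46% and 10.2% of all genes. PPFIA4 (-1.35), ANGPTL4 (-1.16), a lipoprotein lipase inhibitor, and IGFBP3 (-1.06) had the largest decreases by the same rule. STC2 (0.88), TMEM45A (0.55), TFRC (0.32), the transferrin receptor, and CAV1 (0.17) had the largest increases (adjusted p from 1.1e-04 to 0.0057 by edgeR). Between the times, 15 genes rose and 14 fell. BHLHE41 (1.198), BNIP3L (1.05), STC2 (0.99) and TMEM45A (0.95) rose the most, and genes that fell included PPFIA4 (-1.10), IGFBP3 (-0.65) and ANGPTL4 (-0.64).

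For the glycolytic arm, 12 of 20 targets were lower and 3 higher at 8 h, against 24.5% and 25.2% of all genes. At 24 h, 15 were lower and 2 higher, against 26.8% and 25.7%. The medians were -0.23 at 8 h and -0.24 at 24 h. Beyond the fold limit, 2 were lower and 1 higher at 8 h, against 7.67% and 10.1% of all genes. At 24 h these were 3 lower and 1 higher, against 8.46% and 10.2%. ALDOC, an aldolase, was the lowest at both times (-1.17 and -0.76), with untreated replicate 1 at 18.5 CPM and the others at 8.30 and 10.5 CPM. Without that library ALDOC was at -0.78 and -0.37, and HK2, a hexokinase, was the lowest at 24 h (-0.82). PFKFB4, a regulator of fructose bisphosphate levels, was the highest at both times (0.67 and 0.91). These counts are read beside the shares of all genes given above, and no list was tested as a set.

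**Figure D3:**
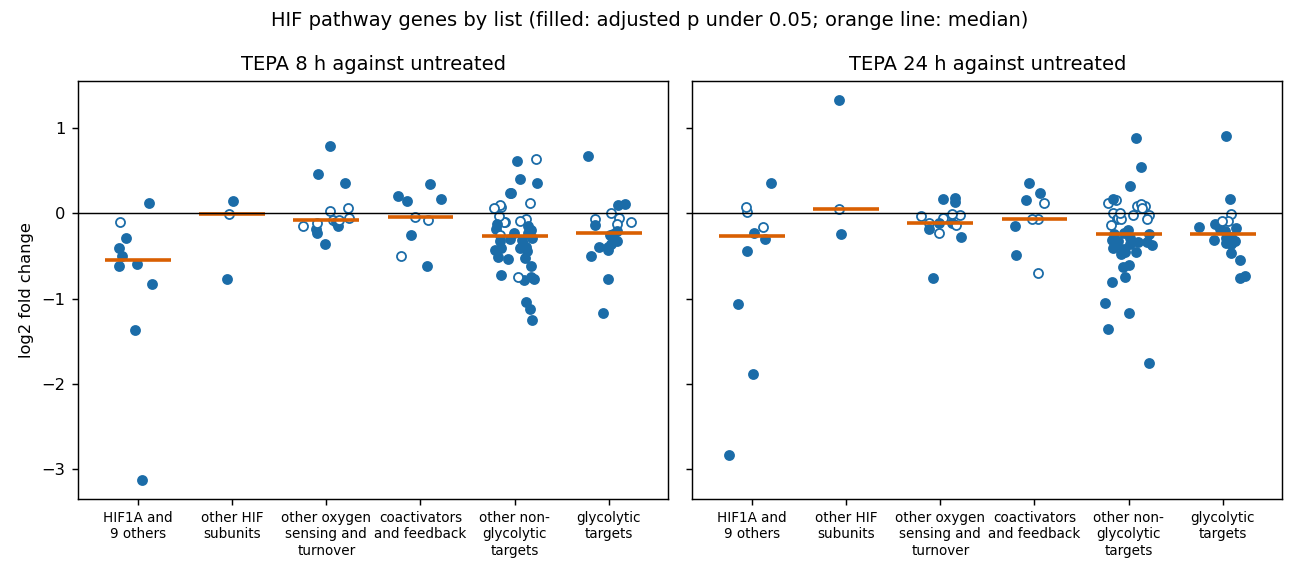
Log2 fold change (vertical axis) at 8 h (left) and 24 h (right) against untreated cells for the 10 genes and 5 lists of other HIF pathway genes, with filled points at an adjusted p under 0.05 and orange lines at the medians. Medians of the lists of non-glycolytic and glycolytic targets were between -0.27 and -0.23 at both times, while those of the other subunits, sensing genes and coactivators were between -0.11 and 0.05.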

How the data were processed

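Groups and replicate numbers were taken from the sample labels. The authors checked reads with FastQC, aligned paired-end reads to hg38 with HISAT2, and counted them per gene name over exons with featureCounts, using strand and a GRCh38 gene annotation. Raw counts were deposited, with no normalization. Counts were analysed in R 4.3.3 with edgeR 4.0.16: filterByExpr with a minimum count of 10, TMM factors (0.978 to 1.039), and a quasi-likelihood fit of all 9 libraries, with Benjamini-Hochberg adjustment over 16556 genes. Tested genes held 99.9% of the counts. Standard errors were taken as the log2 fold change over the root of its F statistic. Nothing states that replicates came from separate cultures, so p-values measure only the spread between libraries, and a permutation of 3 against 3 cannot give a p under 0.1.

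The 10 genes and all lists were chosen with earlier results of these data known. Named genes were the 10, the HIF subunits, VHL, EGLN2, HIF1AN, BNIP3L, MT1X and MT2A, the 4 highest and 4 lowest called genes per comparison of the non-glycolytic list, and the highest and lowest of the others. Other genes were named after their values were seen, and some genes that the rule names are not reported here. Merged exon lengths and positions are from GENCODE v44 (GRCh38). Alternatives were DESeq2 1.42.0, upper-quartile or RLE scaling, other filters and fold limits, mitochondrial genes left out, a fit of just the 2 groups concerned, a block for the replicate number, and each library left out (for genes outside the 10, untreated replicate 1, chosen after seeing the data). The fit was tested on simulated counts with 200 changed genes.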

Additional observations from a re-analysis of the deposited data

Results flagged for a closer look

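Levels after 8 h and after 24 h of TEPA differed for 6 of the 10 genes, by the test of 24 h against 8 h itself in edgeR's quasi-likelihood fit. No untreated library was matched to either time. Of all genes tested, 54.8% were called in that comparison, a share near that of the 10 genes. HIF1A was 0.17 higher on the log2 scale at 24 h, EGLN3 0.84 higher, NDRG1 0.30 higher, ANKRD37 0.44 higher and ADM 0.46 higher. CA12 had a difference of -1.26. EGLN3 and ANKRD37 were called lower at 8 h and not called against untreated cells at 24 h, while ADM was called higher only at 24 h. The calls of NDRG1 and ANKRD37 depended on single libraries, as given above.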

How the results depend on the processing

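Over the 10 genes and 3 comparisons, 8 refits with other settings or tools and 9 with a library left out gave 510 log2 fold changes, of which 498 kept their side of the threshold, 10 lost a call, 2 gained a call, and no called value changed sign. EGLN3 at 24 h, which was not called, ranged from -0.09 to 0.15 with each library left out. With a log2 fold limit of 0.5, the genes called higher at 8 h went from 1 to 0, those called at 24 h from 7 to 3 (3 lower and 0 higher), and those called between the times from 6 to 2 (1 higher). With a limit of 1, 2 were called at 8 h (2 lower, 0 higher), 3 at 24 h (3 lower, 0 higher) and 1 between the times (0 higher). Leaving out each library in turn gave 8 to 9 called at 8 h (8 to 9 lower, 0 to 1 higher), 7 to 8 at 24 h (6 lower, 1 to 2 higher) and 4 to 6 between the times (3 to 5 higher, 1 lower). A lone left-out library changed a call only for VEGFA, ADM, NDRG1 and ANKRD37. DESeq2 called 5 genes between the times, without ANKRD37. Same-numbered libraries did not deviate together, with correlations from -0.0801 to 0.0383 over 9 pairs, so the numbers were not read as pairs. With the replicate number as a block, 9, 7 and 6 genes were called, as without it. The log2 fold change of BNIP3 at 8 h was -0.49 with upper-quartile factors, under the limit of 0.5. No scaling moved the median of all genes by more than 0.1. Depth limits CA9 after TEPA, at 12 to 32 counts per library. The cause of these differences was not tested.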

Other observations

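HIF1A-AS3, an antisense RNA at the HIF1A locus that was chosen after its values were seen, was at 2.15 ± 0.377 CPM without TEPA, 2.67 ± 0.248 CPM after 8 h and 1.86 ± 0.219 CPM after 24 h (SD, n = 3). It was not called at 8 h (log2 fold change 0.31, edgeR adjusted p = 0.11) or at 24 h (-0.20, adjusted p = 0.31). It was lower at 24 h than at 8 h (-0.51, adjusted p = 0.012), where HIF1A was higher. HIF1A-AS1, another antisense RNA of the locus, was at 0.229, 0.0878 and 0.176 CPM in untreated cells, at 8 h and at 24 h. Its counts, at most 12 in any library, were too few to read a direction.

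Among 11920 genes with a mean of at least 100 counts, those whose log2 CPM was most like that of HIF1A over the 9 libraries were HMGB3, LIPG, PDE4B, MARCKSL1 and TMSB4X, with Pearson correlations from 0.991 to 0.995. For CA9 they included NTNG2, LRRC42, CUTA and IER5L, from 0.984 to 0.991. The points share 3 groups and 1 set of size factors, so these values describe the group pattern. Fold sizes differed within it: LIPG was at 71.8, 11.7 and 26.1 CPM in untreated cells, at 8 h and at 24 h, whereas TMSB4X was at 1454, 1033 and 1173 CPM.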
